A study of Mus musculus with 12 samples.

Results

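The 9 genes described here encode enzymes of the pentose phosphate pathway and of cytosolic NADPH production, and were followed in MODE-K cells exposed to gamma rays: G6pdx, Pgls, Pgd, Rpia, Rpe, Tkt, Taldo1, Me1 and Idh1. They were chosen by symbol among the known genes of the deposited table, as 9 of its 33625 genes. Each had a single entry, and all 9 passed the filter on low counts that left 15086 genes for testing. MODE-K is an established epithelial line from mouse small intestine, labelled wild type. RNA was sequenced from 12 libraries, 3 in each of 4 groups. Controls got 0 Gy and were harvested at 0 h; the group 4Gy_48h got 4 Gy and was harvested 48 h later; the groups 12Gy_24h and 12Gy_48h got 12 Gy and were harvested 24 h and 48 h later. The rays came from a 60Co source at 87 cGy/min. No control was harvested later than 0 h, so the effect of dose and that of further culture cannot be told apart in any comparison with control. The labels describe parallel experiments on 1 line, so a p-value here measures the spread between such parallel samples.

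Library totals ran from 3616416 to 4831641 assigned reads. Unannotated new loci took 19.8 to 21.7% of the reads in control libraries, 15.1 to 16.9% after 4 Gy, and after 12 Gy 11.9 to 12% (24 h) and 14 to 15.1% (48 h). With these loci in the scaling, the median known gene stood at 0.20 (12Gy_48h), 0.23 (12Gy_24h) and 0.14 (4Gy_48h) on the log2 scale against control. Calls among the 9 genes are therefore given also from a fit to the known genes alone, where these medians were 0.01, 0 and -0.01. Of the markers that define an epithelium, Epcam and Cdh1 had 0 or 1 read per library, Krt8 and Krt19 0 to 2 and Krt18 5 to 62, and none of the 10 epithelial markers reached 10 reads in every library. The intestinal genes Vil1 and Cdx2 had at most 1 and 9 reads. Of 10 mesenchymal markers, 3 had 10 reads in every library: Vim with 1884 to 9227, Col1a2 with 648 to 1228 and Col1a1 with 25 to 64. The other mesenchymal markers were near 0, with at most 2 reads of Col3a1, 4 of Dcn, 9 of Pdgfra, 14 of Pdgfrb, 1 of Thy1 and of Acta2, and 0 of Lum. Their summed level, nearly all of it Vim and Col1a2, was 691 to 1120 CPM (reads relative to the library total) in control libraries, 1240 to 1720 after 4 Gy, and after 12 Gy 2280 to 2720 (24 h) and 1470 to 2010 (48 h). In the same order, the sum of the epithelial markers was 3.97 to 8.07, 8.69 to 10.7, 12.6 to 17.7 and 11 to 13.8 CPM, and that of 9 immune markers 23.6 to 29.9, 17.4 to 23.5, 23.8 to 37.3 and 44.4 to 52.4 CPM, with Ptprc, which marks all leukocytes, at 0 reads throughout. The epithelial sum was nearly all Krt18 and Krt7 (3 to 19 reads per library). The immune sum was mostly Cd68 (41 to 147 reads) and Lyz2 (14 to 42), with Csf1r at 0 to 17 and the other immune markers at most 2. The summed intestinal lineage and endothelial markers reached at most 3.22 and 1.38 CPM in any library. The part of the cells behind these markers in the results below was not tested.

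The pentose phosphate pathway takes glucose 6-phosphate out of glycolysis. Its oxidative branch, run by glucose-6-phosphate dehydrogenase (G6pdx), the lactonase (Pgls) and 6-phosphogluconate dehydrogenase (Pgd), makes NADPH at both dehydrogenase steps and ends in ribulose 5-phosphate. The non-oxidative branch turns this into the ribose of nucleotides (isomerase, Rpia), into xylulose 5-phosphate (epimerase, Rpe), and, through transketolase (Tkt) and transaldolase (Taldo1), back into sugars of glycolysis. Malic enzyme (Me1) and isocitrate dehydrogenase (Idh1) make NADPH in the cytosol by other routes. NADPH keeps glutathione and thioredoxin reduced and pays for the synthesis of lipids and deoxynucleotides, which the fast-renewing gut epithelium needs. The transcription factor NRF2, which binds antioxidant response elements, is known to raise several genes of these routes. Whether it had a part in the changes described below was not tested.

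The sequences before the start sites are shown for a gene of each branch that rose, for the gene that fell, and for the match to the core of that element. The core, TGACNNNGC, was searched on both strands in the 250 bases upstream of each RefSeq start (GRCm38.p6). Among the 9 genes it was found for G6pdx alone, on the strand opposite to the gene, from 57 to 49 bases upstream of the start (chrX:74428929-74428937). Of all 32841 upstream windows of that length, 10.2% held it. The G6pdx window lies inside a first exon of the GENCODE annotation, so only the match (capitals) with 10 bases on each side is given, from chrX:74428919-74428947 on the minus strand. For Pgd (chr4:149166772-149166955, minus strand), Tkt (chr14:30548881-30549001, plus strand) and Rpe (chr1:66700581-66700830, plus strand) the run is the part of the window outside annotated exons, and nothing is in capitals because there was no match. The RefSeq start used for Tkt lies downstream of the GENCODE start of the gene (chr14:30548359). Its run therefore lies within the annotated gene, and the sequence before the GENCODE start was not searched.
G6pdx: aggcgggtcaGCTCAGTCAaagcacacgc
Pgd: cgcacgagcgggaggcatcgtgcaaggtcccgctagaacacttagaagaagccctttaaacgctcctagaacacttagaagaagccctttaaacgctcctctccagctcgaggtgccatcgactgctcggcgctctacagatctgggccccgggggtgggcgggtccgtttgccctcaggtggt
Tkt: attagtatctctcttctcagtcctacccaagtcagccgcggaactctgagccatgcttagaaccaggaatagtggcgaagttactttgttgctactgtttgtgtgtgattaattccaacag
Rpe: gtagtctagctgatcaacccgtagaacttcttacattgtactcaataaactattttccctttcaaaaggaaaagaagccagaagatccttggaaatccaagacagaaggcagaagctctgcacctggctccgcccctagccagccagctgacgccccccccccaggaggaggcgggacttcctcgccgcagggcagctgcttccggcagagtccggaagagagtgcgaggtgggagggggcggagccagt

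Levels below are CPM after TMM scaling, which adjusts library sizes for differences in composition. Per length of transcript, transaldolase was the most abundant of the 9 in the controls. Taldo1 stood at 175 ± 2.19 CPM per kb (SD, n = 3), followed by Pgls at 87.9 ± 67.9. Pgd at 34.8 ± 5.46 and Tkt at 34.8 ± 0.814 did not differ beyond their spread. Rpe (10.7 ± 2.31) and G6pdx (10.5 ± 2.51) were likewise level with each other. Me1 (5.20 ± 0.708), Rpia (4.36 ± 0.547) and Idh1 (3.77 ± 0.571) were the lowest, and each neighbouring pair among them lay within its spread. Dividing by length presumes that longer transcripts give more reads, which could not be checked because the platform is not named. Undivided, the control means were 215 ± 2.70 CPM for Taldo1, 112 ± 2.62 for Tkt, 78.5 ± 60.6 for Pgls and 77.3 ± 12.1 for Pgd. The order below Taldo1 thus depends on this division.

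After 12 Gy, the dehydrogenases of the oxidative branch, transketolase and malic enzyme were higher than in the controls at both times, transaldolase was called at 24 h, and the epimerase Rpe was lower at 48 h. A gene was called at a Benjamini-Hochberg adjusted p under 0.05 in edgeR's quasi-likelihood test, adjusted over all 15086 genes. At 12Gy_48h, 4 of 9 genes rose (Pgd, G6pdx, Me1, Tkt) and 1 fell (Rpe). The median log2 change of the 9 was 0.40, beside 0.20 for known genes and 0.01 for all genes tested. Over all genes, 12.9% were called higher and 20.2% lower, and over the known genes among them 18.2% and 3.74%. At 12Gy_24h, 5 of 9 rose (Pgd, Tkt, Me1, G6pdx, Taldo1), where 18.5% of all genes and 26.5% of known genes were called higher. The median of the 9 was 0.42, beside 0.23 for known genes and 0.01 for all genes tested. At 4Gy_48h only Tkt was called, beside 4.53% of all and 6.21% of known genes called higher. In the fit to known genes alone, 2 of 9 rose at 12Gy_48h (Pgd, G6pdx) and Rpe fell, 2 of 9 rose at 12Gy_24h (Pgd, Tkt), and edgeR called none at 4Gy_48h (1 higher at an unadjusted p under 0.05, and none called by DESeq2). That fit called 6.76% of known genes higher and 8.04% lower at 12Gy_48h, 9.15% higher at 12Gy_24h and 0.754% higher at 4Gy_48h. The median of the 9 in that fit was 0.21 at 12Gy_48h and 0.18 at 12Gy_24h, beside 0.01 and 0 for known genes.

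The irradiated groups also differed from each other. From 24 h to 48 h after 12 Gy, Tkt and Rpe fell in both fits, and edgeR called none of the 9 higher (none at an unadjusted p under 0.05 and none by DESeq2). The shares called lower were 11.4% of all genes, 15.6% of the known genes among them, and 12.6% in the fit to known genes alone. At 48 h, Pgd was higher after 12 Gy than after 4 Gy, the only call among the 9 in the fit to all genes, where 2.19% of all genes and 2.79% of known genes were called higher. The fit to known genes alone called Pgd higher (2.91% of known genes) and Rpe lower (3.22%). All 3 comparisons with control share the same control libraries. In bulk RNA, fewer cells of a type and less RNA per cell cannot be told apart.

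**Figure D1:**
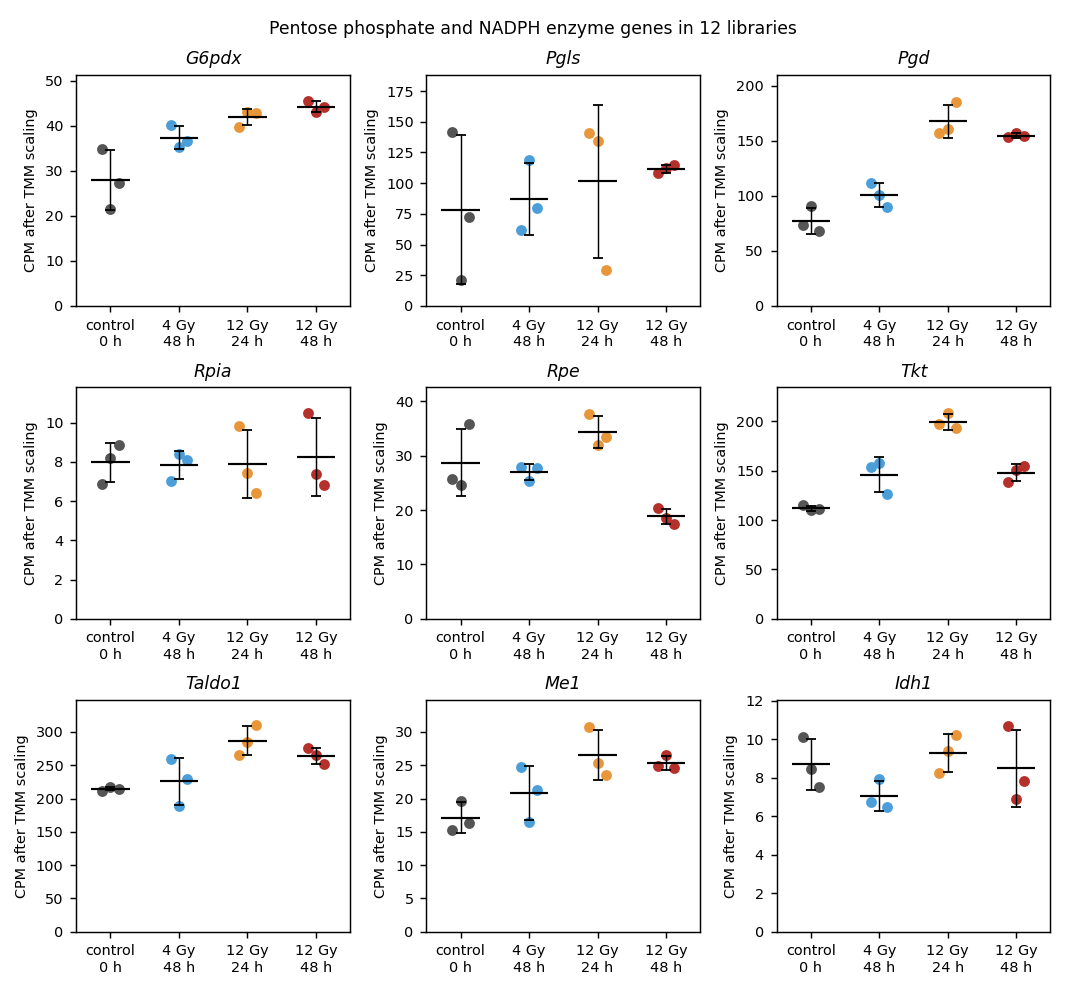
Level of each of the 9 genes in every library, in CPM after TMM scaling, by group; points are libraries, the long bar is the mean of 3 and the whisker is the SD. Pgd and Tkt after 12 Gy lie above all controls, Rpe at 12Gy_48h lies below all other libraries, and Pgls spreads widely within 3 of the 4 groups.

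Pgd (ENSMUSG00000028961, chr4:149149991-149166771, minus strand, GRCm38), the second dehydrogenase of the pathway, changed most. Its CPM in the 3 control libraries was 73.1, 90.9 and 67.8, after 4 Gy it was 112, 101 and 89.6, and after 12 Gy it was 157, 161 and 185 at 24 h and 153, 157 and 154 at 48 h. Every library after 12 Gy was above every control and every 4 Gy library, and the lowest 4 Gy library lay just below the highest control. The rise was 2.17-fold at 12Gy_24h (log2 1.12, SE 0.13, edgeR adjusted p = 2.62e-06) and 2-fold at 12Gy_48h (log2 1.00, SE 0.13, edgeR adjusted p = 3.25e-05). With known genes alone these were 1.84-fold (edgeR adjusted p = 0.000172) and 1.76-fold (edgeR adjusted p = 0.000445). The authors' deposited table lists log2 values of 1.19 and 1.05 for Pgd in the same comparisons.

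The dose comparison at 48 h set 12 Gy against 4 Gy for Pgd. The level after 12 Gy was 1.54-fold that after 4 Gy (log2 0.62, SE 0.13, edgeR adjusted p = 0.0143), and 1.5-fold with known genes alone (edgeR adjusted p = 0.0112). The edgeR adjusted p was 0.0702 without 4Gy_48h replicate 3 and 0.0758 without 12Gy_48h replicate 2. For 4 Gy against control the log2 difference was 0.38 (SE 0.13, 95% interval 0.08 to 0.68, edgeR adjusted p = 0.0506), just short of the threshold. That value was 0.56 (edgeR adjusted p = 0.0117) without control replicate 2, and 0.23 (edgeR adjusted p = 0.399) with known genes alone. From 24 h to 48 h after 12 Gy, Pgd differed by a log2 value of -0.12 (95% interval -0.41 to 0.17), which was not called.

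G6pdx (ENSMUSG00000031400, chrX:74409483-74429194, minus strand), the entry enzyme and the usual point of control of the pathway, rose less than Pgd. Control libraries had 34.8, 21.5 and 27.3 CPM, those after 4 Gy had 40.2, 35.3 and 36.7, and those after 12 Gy had 39.8, 43.0 and 42.9 at 24 h and 45.5, 43.0 and 44.2 at 48 h. All 9 irradiated libraries were above the highest control, control replicate 1, although that library came close to the 4 Gy values. The rise was 1.58-fold at 12Gy_48h (log2 0.66, SE 0.15, edgeR adjusted p = 0.00345), and 1.39-fold with known genes alone (edgeR adjusted p = 0.0359). At 12Gy_24h it was 1.49-fold (log2 0.58, SE 0.15, edgeR adjusted p = 0.00474). With known genes alone the 12Gy_24h difference was 1.27-fold and was not called (edgeR adjusted p = 0.117), and on that scale control replicate 1, at 45.9 CPM, lay among the 12Gy_24h libraries at 45.5, 49.3 and 48.7.

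At 4Gy_48h the log2 difference of G6pdx was 0.42 (SE 0.15, edgeR adjusted p = 0.0717), not called. It was 0.63 (edgeR adjusted p = 0.00741) without control replicate 1. G6pdx shares 418 bases of exon with Ikbkg, a gene on the opposite strand that encodes a subunit of the IKK complex. Whether counting used strand is not given in the sources used here, so reads in this stretch may come from either gene. Ikbkg had 64 to 70 reads per control library, 50 to 66 after 4 Gy, and after 12 Gy 100 to 119 (24 h) and 87 to 113 (48 h). G6pdx had 84 to 162, 136 to 155, 147 to 156 and 169 to 174 in the same order.

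Pgls (ENSMUSG00000031807, chr8:71592176-71601092, plus strand), the lactonase between both dehydrogenases, gave no call in any comparison and varied more between replicates than between groups. The controls held 142, 21.0 and 72.6 CPM. The libraries after 4 Gy held 61.5, 119 and 80.1, those 24 h after 12 Gy 141, 134 and 29.2, and those 48 h after 12 Gy 108, 112 and 115. The groups overlapped throughout, and control replicate 2 and 12Gy_24h replicate 3 stood far below their partners. The coefficient of variation was 77.3% among controls, 33.7% after 4 Gy, and after 12 Gy 61.8% at 24 h but 3.37% at 48 h. These are not low counts, since Pgls had 82 to 660 reads per library. Its fitted dispersion (biological coefficient of variation 0.432) was above that of 99.8% of the 6581 known genes with at least 10 CPM.

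The log2 difference of Pgls against control was 0.50 at 12Gy_48h (95% interval -0.66 to 1.66), 0.36 at 12Gy_24h (-0.80 to 1.52) and 0.14 at 4Gy_48h (-1.03 to 1.30), so rises of over 2-fold lie inside each interval. Single libraries moved these values. At 12Gy_48h the difference was 1.27 without control replicate 1 and 0.09 without control replicate 2, and at 12Gy_24h it was 1.14 and 0.00, and 0.93 without 12Gy_24h replicate 3. At 4Gy_48h it was 0.91 without control replicate 1 and -0.26 without control replicate 2. Without both low libraries, a choice made after their values were seen, the values were 0.07 at 12Gy_48h, 0.46 at 12Gy_24h and -0.29 at 4Gy_48h. All of these lay short of edgeR's threshold. Pgls shares 776 bases of exon with Fam129c on the same strand, which had 3 to 17 reads per library.

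Other known genes moved with Pgls from library to library. The 3 most alike over the 12 libraries, by Pearson's r of log2(CPM + 1), were Med9 (0.981), Trnau1ap (0.978) and Trir (0.961), which encode a Mediator subunit, a protein that associates with selenocysteine tRNA and an RNase that interacts with telomerase RNA. Med9 was at 6.66 CPM in control replicate 2 and 8.75 in 12Gy_24h replicate 3, against 13.2 to 31.7 in the other libraries. Trnau1ap was at 19.5 and 18.7 CPM in these libraries and 34.3 to 57.1 elsewhere. When each library's deviation from its group mean was used instead, 189 of 6457 known genes (2.93%) followed Pgls with r over 0.8. The 50 most alike had a median transcript length of 1680.5 bases, against 2764 for all 6457. Their median share of G and C bases was 51.4%, against 50.4% for all 6457, while Pgls itself was at 65.4%. These correlations share libraries and depth, and what the low libraries have in common was not tested.

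**Figure D2:**
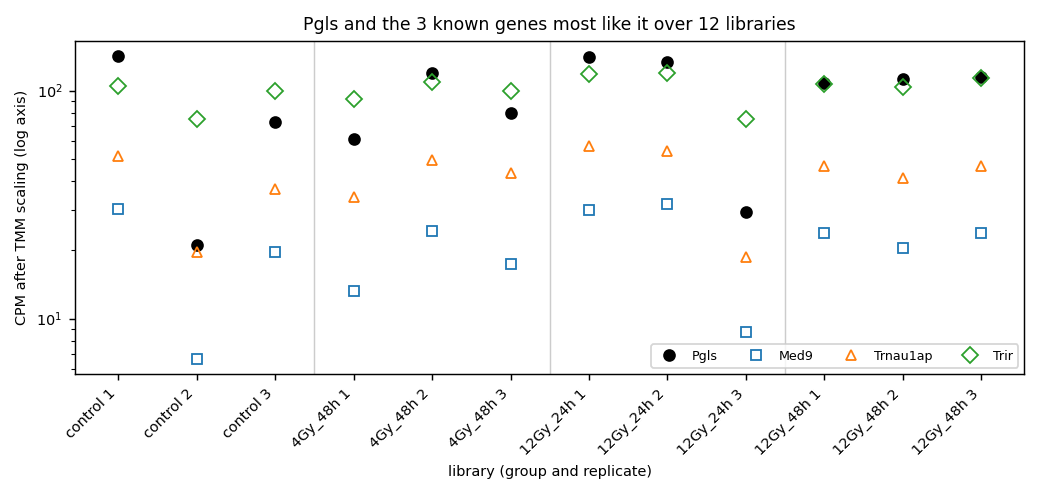
Pgls and the 3 known genes most like it in each of the 12 libraries, in CPM after TMM scaling on a log axis; vertical lines part the groups. All 4 genes dip in control replicate 2 and in 12Gy_24h replicate 3, Pgls to 21.0 and 29.2 CPM.

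In the non-oxidative branch, Tkt (ENSMUSG00000021957, chr14:30548359-30574720, plus strand), transketolase, peaked at 24 h. Its CPM in the 3 control libraries was 115, 110 and 111, after 4 Gy it was 154, 158 and 126, and after 12 Gy it was 197, 208 and 193 at 24 h and 138, 151 and 155 at 48 h. Each irradiated library was above all controls, all 12Gy_24h libraries were above all others, and both 48 h groups overlapped. The rise at 12Gy_24h was 1.77-fold (log2 0.83, SE 0.11, edgeR adjusted p = 1.17e-05), and 1.51-fold with known genes alone (edgeR adjusted p = 0.000804). From 24 h to 48 h Tkt fell by 0.43 on the log2 scale (SE 0.11, edgeR adjusted p = 0.0072), and by 0.38 with known genes alone (edgeR adjusted p = 0.0114).

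At 48 h the Tkt values were close after both doses. The rise was 1.32-fold after 12 Gy (log2 0.40, SE 0.11, edgeR adjusted p = 0.0112) and 1.30-fold after 4 Gy (log2 0.38, SE 0.11, edgeR adjusted p = 0.0246), and the doses differed by 0.02 (95% interval -0.24 to 0.27). Neither was called with known genes alone, at 1.16-fold (edgeR adjusted p = 0.177) and 1.17-fold (edgeR adjusted p = 0.291). The 4 Gy call was lost in 5 of 14 alternative fits: with known genes alone, without 4Gy_48h replicate 1 (edgeR adjusted p = 0.0896) or replicate 2 (edgeR adjusted p = 0.0989), with only the 2 groups compared (edgeR adjusted p = 0.0645) and without both libraries low in Pgls (edgeR adjusted p = 0.065). The log2 difference in the last 4 of these was 0.35, 0.33, 0.41 and 0.38.

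Taldo1 (ENSMUSG00000025503, chr7:141392199-141402968, plus strand), transaldolase, which works beside transketolase, moved little. Control libraries had 212, 217 and 215 CPM, those after 4 Gy had 259, 189 and 230, and those after 12 Gy had 266, 285 and 310 at 24 h and 276, 265 and 252 at 48 h. Every library after 12 Gy was above the controls, whereas those after 4 Gy lay on both sides of them. The rise at 12Gy_24h was 1.34-fold (log2 0.42, SE 0.11, edgeR adjusted p = 0.00574). With known genes alone it was 1.13-fold and not called (edgeR adjusted p = 0.292). At 12Gy_48h the log2 difference was 0.30 (SE 0.11, edgeR adjusted p = 0.0529), not called, and 0.11 with known genes alone (edgeR adjusted p = 0.553).

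Rpe (ENSMUSG00000026005, chr1:66700831-66719805, plus strand), the epimerase that feeds transketolase, was the only one of the 9 called lower than in the controls. The controls held 25.8, 24.6 and 35.9 CPM. The libraries after 4 Gy held 28, 25.4 and 27.8, those 24 h after 12 Gy 37.7, 32.0 and 33.5, and those 48 h after 12 Gy 20.4, 18.6 and 17.5. The 12Gy_48h libraries were the 3 lowest of the 12, and both other irradiated groups overlapped the controls. At 12Gy_48h Rpe was 0.657-fold of control (log2 -0.61, SE 0.16, edgeR adjusted p = 0.00879), and 0.578-fold with known genes alone (edgeR adjusted p = 0.00324). Control replicate 3 was high for Rpe, and without it the value was -0.38 (edgeR adjusted p = 0.0807).

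The contrast of times did not rest on that control. From 24 h to 48 h after 12 Gy, Rpe fell to 0.548-fold (log2 -0.87, SE 0.16, edgeR adjusted p = 0.000769), and to 0.567-fold with known genes alone (edgeR adjusted p = 0.00152). It was called in each of the 14 alternative fits, with log2 values of -1.01 to -0.81 when single libraries were left out. At 24 h against control the log2 difference was 0.26 (SE 0.15, edgeR adjusted p = 0.172), not called, but 0.53 (edgeR adjusted p = 0.00886) without control replicate 3. Between doses at 48 h it was -0.52 (SE 0.16, edgeR adjusted p = 0.0737), with no overlap of the groups, and -0.56 with known genes alone (edgeR adjusted p = 0.0487). Rpe shares 558 bases of exon with Kansl1l on the opposite strand, which had 1 to 5 reads per library.

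Pgd and Rpe lie on either side of ribulose 5-phosphate. The ratio of their read counts, which does not depend on the scaling, was 1.89 to 3.70 in control libraries, 3.22 to 3.99 after 4 Gy, and after 12 Gy 4.18 to 5.52 (24 h) and 7.47 to 8.81 (48 h). The 12 Gy libraries did not overlap the controls, and those at 48 h lay above those at 24 h. This pair sets the gene that rose most against the only gene called lower than in the controls. The ratio therefore restates the calls given above, and it was not tested. The known genes most like Rpe over the libraries encode ribosomal proteins, Rps7 (r = 0.966), Rplp1 (0.962) and Rpl22 (0.947). For Pgd they were Ubxn4 (0.972), Mdh1 (0.967), the cytosolic malate dehydrogenase, and Capg (0.967), and for Tkt they were Hsp90ab1 (0.969), Ppp2r5c (0.963) and Cdc37 (0.961), of which the first and last encode a chaperone and its partner.

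Rpia (ENSMUSG00000053604, chr6:70765720-70792232, minus strand), the isomerase that makes ribose 5-phosphate, gave no call. Its CPM in the 3 control libraries was 6.88, 8.19 and 8.84, after 4 Gy it was 7.01, 8.39 and 8.09, and after 12 Gy it was 9.82, 7.44 and 6.42 at 24 h and 10.5, 7.39 and 6.80 at 48 h. The groups overlapped in every comparison. With 22 to 40 reads per library, the 95% intervals against control were -0.49 to 0.59 at 12Gy_48h, -0.55 to 0.55 at 12Gy_24h and -0.56 to 0.52 at 4Gy_48h on the log2 scale, so a change of the size seen for Tkt at 48 h was not detectable at this depth.

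**Figure D3:**
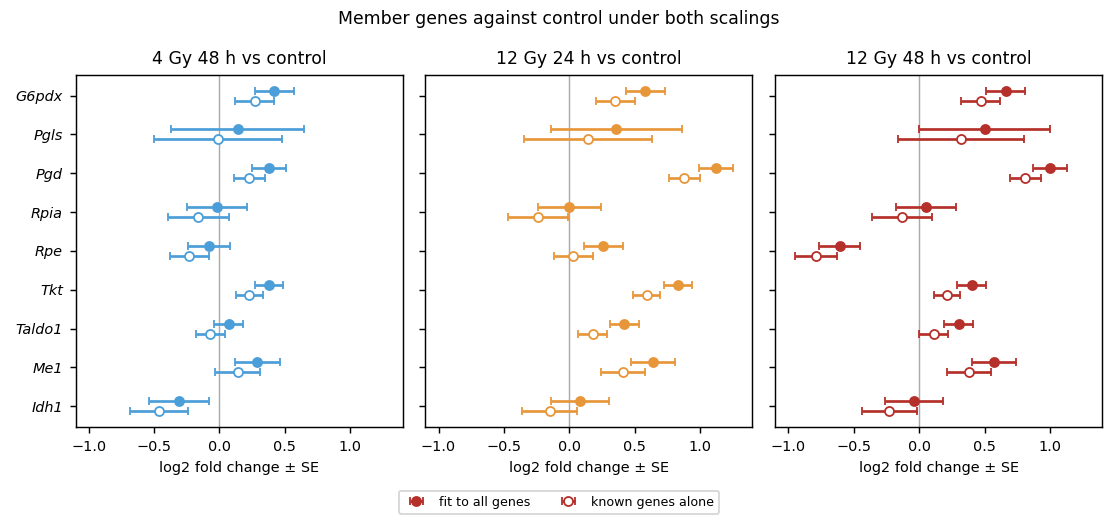
Log2 fold change against control (x axis) of the 9 genes with its SE, for 4Gy_48h, 12Gy_24h and 12Gy_48h; filled points are the fit to all genes and open points the fit to known genes alone. Pgd lies to the right in both fits after 12 Gy, Rpe lies to the left at 12Gy_48h, and each open point sits to the left of its filled one.

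Outside the pathway, Me1 (ENSMUSG00000032418, chr9:86581371-86695953, minus strand), cytosolic malic enzyme, rose after 12 Gy at both times. Control libraries had 15.3, 19.7 and 16.3 CPM, those after 4 Gy had 24.7, 16.5 and 21.3, and those after 12 Gy had 30.8, 25.3 and 23.6 at 24 h and 24.9, 26.5 and 24.6 at 48 h. The 12 Gy libraries were all above the controls, and the 4 Gy libraries overlapped them. The rise was 1.56-fold at 12Gy_24h (log2 0.64, SE 0.17, edgeR adjusted p = 0.00527) and 1.48-fold at 12Gy_48h (log2 0.57, SE 0.17, edgeR adjusted p = 0.0179). Neither was called with known genes alone, at 1.32-fold (edgeR adjusted p = 0.116) and 1.30-fold (edgeR adjusted p = 0.147), and the 12Gy_48h call was lost with DESeq2 (adjusted p = 0.0513) and without control replicate 1 (edgeR adjusted p = 0.0573).

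Idh1 (ENSMUSG00000025950, chr1:65158616-65186500, minus strand), cytosolic isocitrate dehydrogenase, gave no call. The controls held 10.1, 8.45 and 7.50 CPM. The libraries after 4 Gy held 6.75, 7.90 and 6.47, those 24 h after 12 Gy 8.23, 9.37 and 10.2, and those 48 h after 12 Gy 10.7, 6.88 and 7.84. The groups overlapped. The log2 differences from control were -0.04 (95% interval -0.55 to 0.46), 0.08 (-0.42 to 0.59) and -0.31 (-0.83 to 0.21) at 12Gy_48h, 12Gy_24h and 4Gy_48h.

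As a group, the 9 genes took 539.2 to 611.2 CPM (of all reads, unscaled) in control libraries, 619.1 to 680.7 after 4 Gy, and after 12 Gy 755.9 to 856.8 (24 h) and 821.5 to 830.4 (48 h). Without Pgls the sums were 474.6 to 517.5, 539.9 to 620.3, 711.2 to 730.2 and 699.9 to 714.2. Taldo1, Pgd and Tkt make up most of these sums, which therefore say little of the rarer genes.

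Among other genes of pentose and ribose metabolism, the fit to all genes called 1 against control. Of 14 listed, 9 could be tested; Tktl1 and Tktl2, the transketolase-like genes, had no reads in any library. At 12Gy_48h, at 12Gy_24h and at 4Gy_48h only Pgm1 was called, higher each time. In these comparisons 18.2%, 26.5% and 6.21% of known genes were called higher. From 24 h to 48 h after 12 Gy 4 of 9 fell, beside 15.6% of known genes called lower between these times. With known genes alone, Pgm1 was called at 12Gy_24h only, and at 12Gy_48h none was higher (1 at an unadjusted p under 0.05, none by DESeq2) and 2 were lower, Prps1 (0.756-fold, edgeR adjusted p = 0.0356) and Pgm2 (0.693-fold, edgeR adjusted p = 0.0174). That fit called 9.15% of known genes higher at 12Gy_24h and 8.04% lower at 12Gy_48h. At 4Gy_48h that fit called none of the 9 by edgeR (1 higher at an unadjusted p under 0.05, none by DESeq2), with Pgm1 at 1.24-fold (edgeR adjusted p = 0.263). Pgm1, which encodes phosphoglucomutase, stood at 22.8 ± 2.02 CPM (SD, n = 3) without irradiation and 31.3 ± 1.08 after 4 Gy, and after 12 Gy at 47.1 ± 1.94 (24 h) and 33.3 ± 2.65 (48 h). That is a rise of 2.06-fold at 12Gy_24h (1.75-fold with known genes alone, called) and 1.46-fold at 12Gy_48h (1.28-fold with known genes alone, not called). Like Tkt, Pgm1 was highest in all 3 libraries at 24 h, and its 48 h groups overlapped. The other genes that fell from 24 h to 48 h, chosen after their values were seen, were Prps1 (log2 -0.45), which makes phosphoribosyl pyrophosphate, Pgm2 (-0.49) and Tigar (-0.79), a phosphatase that turns glucose toward the pentose pathway. All 4 falls were called with known genes alone too, where 12.6% of known genes were called lower.

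A further list held 10 tested genes of NADPH supply outside the 9, mostly mitochondrial or of folate metabolism. Not all of them encode enzymes that make NADPH. Of these 10, 6 fell from 24 h to 48 h after 12 Gy, beside 15.6% of known genes called lower. The same number fell in the fit to known genes alone (12.6% of known genes). The other 4 were not called, and of these Aldh1l2 stood at 14.4 CPM at 24 h and 17.2 at 48 h. Against control, 5 of 10 rose at 12Gy_24h and 3 at 4Gy_48h, where 26.5% and 6.21% of known genes were called higher. At 12Gy_48h, where 3.74% of known genes were called lower, edgeR called 2 lower and none higher (none at an unadjusted p under 0.05 and none by DESeq2). The log2 medians at 12Gy_24h, 4Gy_48h and 12Gy_48h were 0.40, 0.23 and -0.06, beside 0.23, 0.14 and 0.20 for known genes. With known genes alone the medians of these 10 were 0.16, 0.08 and -0.24. The fit to known genes alone called 3 higher and 1 lower at 12Gy_24h (9.15% and 7.91% of known genes) and 3 lower at 12Gy_48h (8.04%). At 4Gy_48h it called none (3 higher and 1 lower at an unadjusted p under 0.05, none by DESeq2).

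Idh2, the mitochondrial relative of Idh1, stood at 43.1 ± 12.8 CPM (SD, n = 3) without irradiation and 63.4 ± 11.6 after 4 Gy. After 12 Gy it stood at 89.8 ± 3.08 at 24 h, a 2.07-fold rise (1.76-fold with known genes alone, called), and at 52.2 ± 2.45 at 48 h. Me2, the mitochondrial relative of Me1, stood at 36.2 ± 0.143 CPM at 12Gy_24h against 20.3 ± 2.85 in the controls (1.79-fold, edgeR adjusted p = 0.000274) and 21.1 ± 3.70 at 12Gy_48h. Me1, by contrast, differed by only -0.07 (95% interval -0.46 to 0.31) between these times, where Me2 fell by 0.78; the difference between these changes was not tested. Mthfd2, a mitochondrial folate dehydrogenase, was at 158 ± 37.8 CPM without irradiation, and after 12 Gy at 215 ± 10.9 (24 h) and 106 ± 7.01 (48 h), and fell by 1.01 between the times. Mthfd1l, of the same pathway, rose 1.85-fold at 12Gy_24h and 1.62-fold at 4Gy_48h, the latter not called with known genes alone (1.46-fold, edgeR adjusted p = 0.126). Glud1, glutamate dehydrogenase, rose 1.28-fold and 1.32-fold in the same comparisons, neither of them called with known genes alone.

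**Figure D4:**
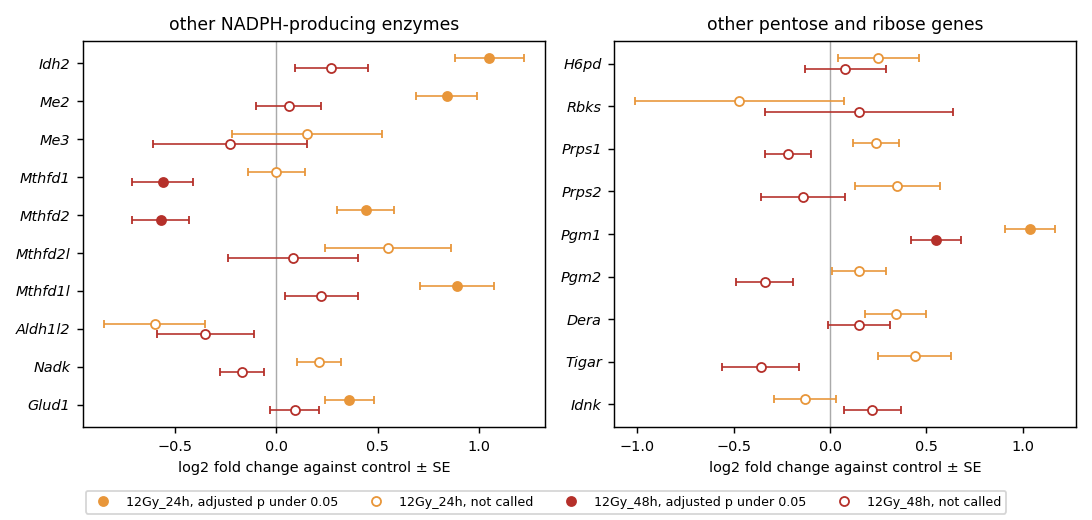
Log2 fold change against control with its SE for the tested genes of NADPH supply outside the 9 genes (left) and the tested other pentose and ribose genes (right), at 12Gy_24h and 12Gy_48h. Not all genes on the left encode enzymes that make NADPH. Filled points have an edgeR adjusted p under 0.05. Of the 10 genes on the left, 5 are called higher at 12Gy_24h and 2 lower at 12Gy_48h, and Pgm1 is the only called gene on the right.

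Enzymes that spend NADPH moved in both directions. Of 24 tested, 8 rose and 2 fell at 12Gy_48h, 9 rose and 2 fell at 12Gy_24h, and 2 rose at 4Gy_48h. Of the known genes in that fit, 18.2% rose and 3.74% fell at 12Gy_48h. The shares at 12Gy_24h were 26.5% and 3.99% (18.5% and 29.4% of all genes), and after 4 Gy 6.21% rose. The 2 of 24 at 4Gy_48h are near the share of known genes, and the 9 of 24 at 12Gy_24h are above it. Whether the latter exceeds that share beyond chance was not tested. With known genes alone, 4 rose and 6 fell at 12Gy_48h, 6 rose and 3 fell at 12Gy_24h, beside 6.76% higher and 8.04% lower and 9.15% higher and 7.91% lower of known genes, and none was called at 4Gy_48h (2 higher and 3 lower at an unadjusted p under 0.05, none by DESeq2). Nqo1, a quinone reductase, rose from 8.2 ± 4.02 CPM (SD, n = 3) in the controls to 40.5 ± 1.86 at 12Gy_24h and 34.3 ± 11.2 at 12Gy_48h, 4.94-fold and 4.19-fold. Blvrb, biliverdin reductase B, rose 2.60-fold and 1.9-fold, Ptgr1, prostaglandin reductase, 2.35-fold and 2.29-fold, and Txnrd1, thioredoxin reductase, 1.75-fold and 1.54-fold in these comparisons, all called in both fits. Hsd17b12, of fatty acid elongation, rose 1.73-fold at 12Gy_24h (1.46-fold with known genes alone, called).

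Most NRF2 pathway genes outside NADPH metabolism rose after 12 Gy. Of 14, all tested, 10 rose at 12Gy_48h, 10 at 12Gy_24h and 2 after 4 Gy, beside 18.2%, 26.5% and 6.21% of known genes, and none was called lower by edgeR (none at an unadjusted p under 0.05 and none by DESeq2). The fit to known genes alone called 7 higher at 12Gy_48h (6.76% of known genes), 8 at 12Gy_24h (9.15%) and none at 4Gy_48h (1 at an unadjusted p under 0.05, none by DESeq2). At 48 h, 9 were higher after 12 Gy than after 4 Gy, as was Pgd, beside 2.79% of known genes, and 8 were with known genes alone (2.91%). Hmox1, heme oxygenase, stood at 71.3 ± 29.8 CPM (SD, n = 3) without irradiation, at 70.7 ± 22 after 4 Gy, and after 12 Gy at 339 ± 35.4 (24 h) and 217 ± 33.5 (48 h). Gsta4, a glutathione transferase, rose 3.06-fold at 12Gy_24h and 3.89-fold at 12Gy_48h, and Srxn1, sulfiredoxin, 2.01-fold and 1.82-fold. The ferritin chains Fth1 and Ftl1 rose 2.22-fold and 1.49-fold at 12Gy_24h, and Txn1, thioredoxin, 1.5-fold. The rises of these 5 genes in the comparisons given were called with known genes alone too. Nfe2l2, which encodes NRF2 itself, and Keap1 were not called against control in either fit. Nfe2l2 stood at log2 0.04 at 12Gy_48h and 0.31 at 12Gy_24h, and Keap1 at 0.32 and 0.15. After 12 Gy, the fit to all genes called Gclm and Sqstm1 against control at 48 h only, and Prdx1 and Txn1 at 24 h only.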

How the data were processed

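The deposited gene table gives raw read counts for each gene in each library, as whole numbers that the authors did not normalize. Beside them it gives CPM, the authors' division of each count by its column's sum (largest difference from a recomputation 4.78e-06). It also holds other values, log2 fold changes and adjusted p of the authors' own comparisons, which entered no test. Per the submitters' processing notes, cutadapt 1.9 and FastQC were used; the sources used here do not name the platform, aligner, build or strandedness. Of 33625 genes, 22036 are known genes and 10995 new loci.

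The main test was a quasi-likelihood fit in edgeR 4.0.16, with R 4.3.3 (filterByExpr, TMM, 1 mean per group, 12 libraries, 8 residual degrees of freedom), in 5 comparisons with two-sided tests and Benjamini-Hochberg adjustment over 15086 genes, of which 9809 were known genes. The biological coefficient of variation was 0.144. Levels are CPM after TMM scaling, and levels per length divide by the principal GENCODE M21 transcript (GRCm38). Alternatives were other filters, RLE scaling, DESeq2 1.42.0, known genes alone (9816 tested), the 2 groups compared alone, a replicate block, and single libraries left out; leaving out both libraries low in Pgls was added after seeing the data.

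All 9 genes were named whatever their result. From each of 4 further lists, genes called in at least 2 of the 3 comparisons with control were named, up to 6 by smallest adjusted p; some genes that these rules name are not reported here. Likeness was Pearson's r of log2(CPM + 1) over the 12 libraries among known genes with at least 10 CPM. The genes and lists were chosen with earlier results of these data known. Marker lists covered epithelial, intestinal lineage, mesenchymal, immune and endothelial genes. Upstream sequences are RefSeq's; all 9 genes matched.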

Additional observations from a re-analysis of the deposited data

Results flagged for a closer look

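Differences between irradiated groups, tested directly, were found for 3 of the 9 genes. Pgd differed between doses at 48 h by 0.62 on the log2 scale (higher after 12 Gy, in 3 of 3 libraries above all 4 Gy libraries). In that comparison 2.79% of known genes were called higher, and the Pgd call held in 12 of 14 alternative fits. Rpe differed between times after 12 Gy by -0.87 and Tkt by -0.43 (both lower at 48 h, in 3 of 3 libraries below all 24 h libraries). Between these times 15.6% of known genes were called lower.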

How the results depend on the processing

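Among the 9 genes, the calls of Pgd at both times after 12 Gy, of G6pdx at 12Gy_48h, of Tkt at 12Gy_24h, and of Rpe and Tkt between 24 h and 48 h held in all 14 alternative fits of each. Counts over all genes moved most with known genes alone: 1453 for 12Gy_48h and 1674 for 12Gy_24h against control, 130 for 4Gy_48h and 2330 between times, beside 4995, 7238, 2649 and 4825 with all genes. That fit tests fewer genes and leaves the new loci out of the scaling. Its split was 664 higher and 789 lower at 12Gy_48h (all genes: 1945 and 3050), 898 and 776 at 12Gy_24h (2798 and 4440), 74 and 56 at 4Gy_48h (684 and 1965), and 1090 and 1240 between times (3102 and 1723). Between doses the count was 707, and 1113 with no filter. Leaving out single libraries gave 1524 to 2980 at 4Gy_48h (1661 and 1524 without 4Gy_48h replicates 1 and 2, 1689 without control replicate 3) and 77 to 431 between doses (77 without 12Gy_48h replicate 2). The cause was not tested.

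The sign turned only for differences that were not called. With known genes alone these were, on the log2 scale, -0.13 for Rpia at 12Gy_48h, -0.15 for Idh1 at 12Gy_24h, -0.01 for Pgls and -0.07 for Taldo1 at 4Gy_48h, and -0.02 for Tkt between doses. With no filter they were 0.03 for Idh1 at 12Gy_48h, 0.15 and 0.06 for Rpia at 12Gy_24h and 4Gy_48h, and 0.00 for G6pdx and -0.03 for Rpia between times. Rpia at 12Gy_24h was 0.01 with at least 5 CPM, 0.04 with RLE, 0.09 with DESeq2, 0.02 with 2 groups and 0.26 without both low libraries. Rpia at 4Gy_48h was 0.01 with 2 groups and 0.02 without both low libraries. Between times, Rpia was -0.02 with RLE, -0.05 with DESeq2 and -0.16 without both low libraries, G6pdx was -0.02 with DESeq2 and Pgls -0.39 without both low libraries, where Pgls at 4Gy_48h was -0.29. With single libraries left out, Rpia ranged from -0.14 to 0.18 and Idh1 from -0.23 to 0.13 at 12Gy_48h; Pgls from 0.00 to 1.14 and Rpia from -0.17 to 0.25 at 12Gy_24h; Pgls from -0.26 to 0.91, Rpia from -0.11 to 0.10, Rpe from -0.15 to 0.14 and Taldo1 from -0.02 to 0.20 at 4Gy_48h; G6pdx from 0.00 to 0.07, Pgls from -0.40 to 0.44, Rpia from -0.17 to 0.23 and Me1 from -0.25 to 0.04 between times; Rpia from -0.14 to 0.19 and Tkt from -0.08 to 0.08 between doses.

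Same-numbered libraries did not deviate together (r from -0.128 to 0.137). With a replicate block, 4713, 7096 and 2384 genes were called against control (12Gy_48h, 12Gy_24h, 4Gy_48h), 4556 between times and 514 between doses, and no call among the 9 genes changed.

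Depth limits Rpia and Idh1 (22 to 47 reads per library), and replicate spread limits Pgls. The 3 libraries per group, the 0 h controls and the single cell line limit every comparison.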

Other observations

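Ratios of read counts between genes of the pathway, which do not depend on the scaling, also differed between groups. Pgd over Tkt was 0.608 to 0.826 in control libraries and 0.637 to 0.724 after 4 Gy, and after 12 Gy it was 0.771 to 0.962 (24 h) and 0.997 to 1.11 (48 h). Tkt over Taldo1 was 0.508 to 0.544 without irradiation and 0.547 to 0.836 after 4 Gy, and after 12 Gy it was 0.620 to 0.741 (24 h) and 0.499 to 0.615 (48 h), where it overlapped the controls. These ratios were not tested.

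Known genes among the 3 most like the remaining genes over the 12 libraries, by Pearson's r, were Men1 (0.964), Exosc4 (0.944) and Bin1 (0.941) for G6pdx, Prmt2 (0.939) and Cystm1 (0.929) for Taldo1, and Sdf4 (0.968), Ndrg1 (0.941) and Lims2 (0.925) for Me1. For the low genes the values were smaller, 0.805 for Rps6ka3 with Rpia and 0.829 for Mrpl37 with Idh1.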
